A study of Homo sapiens with 9 samples.

Results

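Keratins of simple, mucosal and hair-type epithelia were followed in MCF10A-YAP cells after TRAM2 had been targeted with CRISPR. The 9 genes described are KRT7, KRT8, KRT18, KRT19, KRT4, KRT13, KRT80, KRT81 and KRT23. They were chosen by name, with earlier results of these data known, from the 57797 gene symbols with a transcript in the deposited tables. MCF10A is an immortalised, non-transformed breast epithelial line, and MCF10A-YAP carries a constitutively active form of the transcriptional co-activator YAP (YAP5SA), in the controls as well. The 3 groups were cells with a control non-targeting sgRNA, cells with the sgRNA TRAM2-KO1 and cells with the sgRNA TRAM2-KO2, each with 3 libraries lettered A, B and C. All were grown in one medium with horse serum, EGF, insulin and hydrocortisone. Each group was a transduced and antibiotic-selected pool, not a clone, so a pool can hold cells with and without an edited TRAM2. Poly(A) RNA was sequenced, and a library held between 21745712 and 27563287 estimated reads.

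Keratins are the intermediate filament proteins of epithelial cells. An acidic (type I) and a basic (type II) keratin must pair before a filament can form, and the pairs in use differ between tissues. KRT8 with KRT18 is the first pair of the embryo and, with KRT7 and KRT19, marks simple and glandular epithelia, including the luminal layer of the breast. KRT4 with KRT13 belongs to moist stratified mucosa such as the oesophagus, KRT81 to the hair shaft, and KRT80 and KRT23 are epithelial keratins with no fixed partner among these genes.

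Each knockout group used 1 sgRNA, and both are shown because the groups differ in nothing else that the labels name.
TRAM2-KO1: atgctccagctatatgcacc
TRAM2-KO2: gtcaacagaatactcacggg
Both matched the plus strand of GRCh37, at chr6:52372361-52372380 and chr6:52374309-52374328, each followed by an AGG PAM. All 20 bases of the first lie in coding exon 7 of TRAM2-201, and the last 3 bases of the second lie in coding exon 5, with the rest in the intron beside it. TRAM2, a protein of the translocon of the endoplasmic reticulum, stood at 464 to 481 CPM (reads scaled to a common library total) in controls, at 203 to 219 CPM with TRAM2-KO1 and at 210 to 216 CPM with TRAM2-KO2. Its log2 fold change was -1.17 (SE 0.0327, edgeR adjusted p = 4.41e-08) with TRAM2-KO1 and -1.16 (SE 0.0326, adjusted p = 4.19e-08) with TRAM2-KO2, and the 2 groups differed by 0.01 (SE 0.0327, adjusted p = 0.878).

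Of the basal breast markers, 6 of 7 had a mean of at least 1 CPM in every group, while TP63 was at 0.0545 to 0.0806 CPM as group means. Of the 6 luminal markers GATA3 was expressed, at group means of 43.5 to 48.4 CPM, ESR1 was at 3.001 to 3.90 CPM, FOXA1 at 0.778 to 1.01 CPM and ELF5 at 0.0273 CPM or less, and PGR and KRT20 had no reads. The summed level of the basal markers ran from 6060 to 6148 CPM in controls, from 4544 to 4737 CPM with TRAM2-KO1 and from 5462 to 5519 CPM with TRAM2-KO2, and that of CDH1 with EPCAM from 171 to 183, 124 to 143 and 185 to 205 CPM. Their part in the keratin results was not tested. Of the 3 endothelial markers 2 were found, at 0.112 CPM or less in sum, CD3E had no reads and PTPRC had group means of 0.0246 CPM or less. The 6 fibroblast markers summed to between 2.42 and 3.55 CPM, and CD68, listed as a leukocyte marker, had group means of 27.2 to 31.1 CPM. In RNA from a pool of cells, fewer cells that express a gene and less RNA per cell cannot be told apart.

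Levels between genes were compared as TPM, a share of all transcripts that accounts for transcript length. KRT7 was the most abundant of all 55 keratin genes, at a mean of 3069 TPM in controls, ahead of the basal keratin KRT5 at 1300 TPM. KRT8 ranked 3 at 1053 ± 12 TPM (SD, n = 3), KRT18 ranked 5 at 725 ± 17.3 TPM and KRT81 ranked 7 at 311 ± 6.82 TPM. KRT80 at 24.9 ± 0.780, KRT4 at 13.6 ± 0.972 and KRT13 at 9.72 TPM formed a low tier. KRT19 and KRT23 were at the edge of detection, with 0.200 to 0.440 TPM and 0.0370 to 0.201 TPM in controls.

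**Figure D1:**
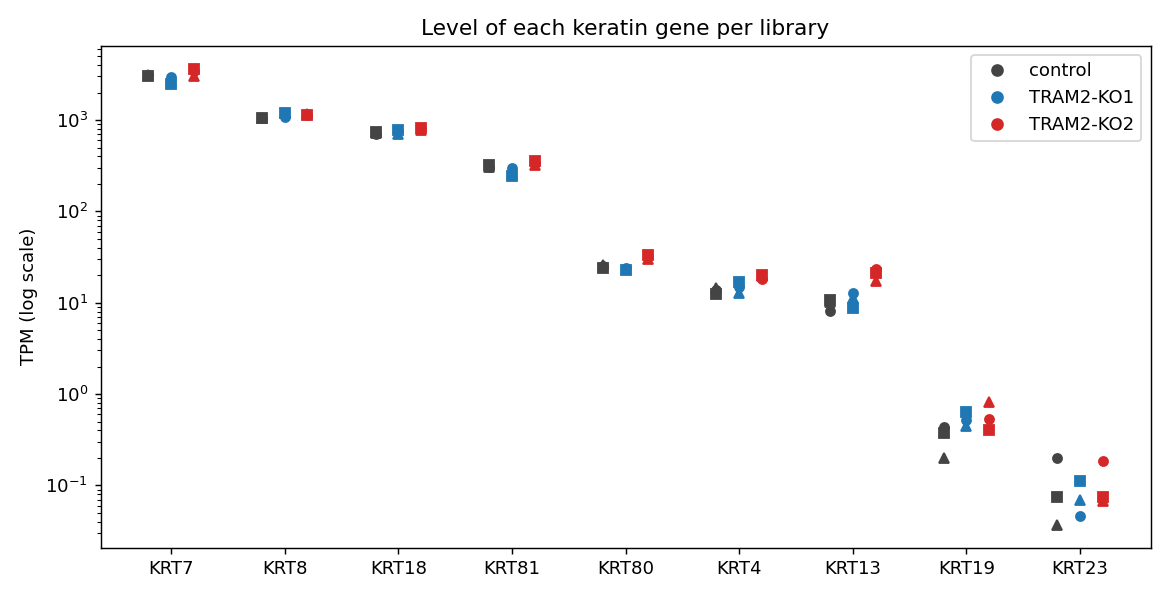
TPM (log scale) of the 9 keratin genes in each of the 9 libraries, ordered by mean control level, with circles for library A, squares for B and triangles for C. KRT7 stands at 2462 to 3640 TPM and KRT23 at or below 0.201 TPM.

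The tiers kept their order in every group, since KRT7, KRT8, KRT18, KRT81 and KRT80 did not overlap with one another in any library. KRT4 and KRT13 were the neighbours that came together. In controls KRT4 was at 12.6 to 14.5 TPM and KRT13 at 8.09 to 10.8 TPM, without overlap, and with TRAM2-KO2 KRT4 was at 18.4 to 20.01 TPM and KRT13 at 17.1 to 23.4 TPM, so the ranges overlapped.

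All keratins together made up 0.778 to 0.791% of the TPM in controls, 0.738 to 0.773% with TRAM2-KO1 and 0.845 to 0.908% with TRAM2-KO2, with no overlap between groups. Control A at 0.778% and TRAM2-KO1 A at 0.773% lay close, while TRAM2-KO1 B and C were at 0.738 and 0.745%. No adjustment for the G and C content of genes was made to these totals, and its part in them was not tested. The 9 genes held 66.3% ± 0.517 of that keratin pool in controls, 65.5% ± 1.24 with TRAM2-KO1 and 65.3% ± 1.13 with TRAM2-KO2 (SD, n = 3), which differ by no more than the spread between libraries. KRT7 alone held 39.1% ± 0.503 in controls, 35.8% ± 2.46 with TRAM2-KO1 and 38.4% ± 1.97 with TRAM2-KO2. Type II keratins outweighed type I keratins by 4.93 ± 0.0739 to 1 in controls, 4.47 ± 0.195 to 1 with TRAM2-KO1 and 4.72 ± 0.162 to 1 with TRAM2-KO2 (SD, n = 3).

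**Figure D2:**
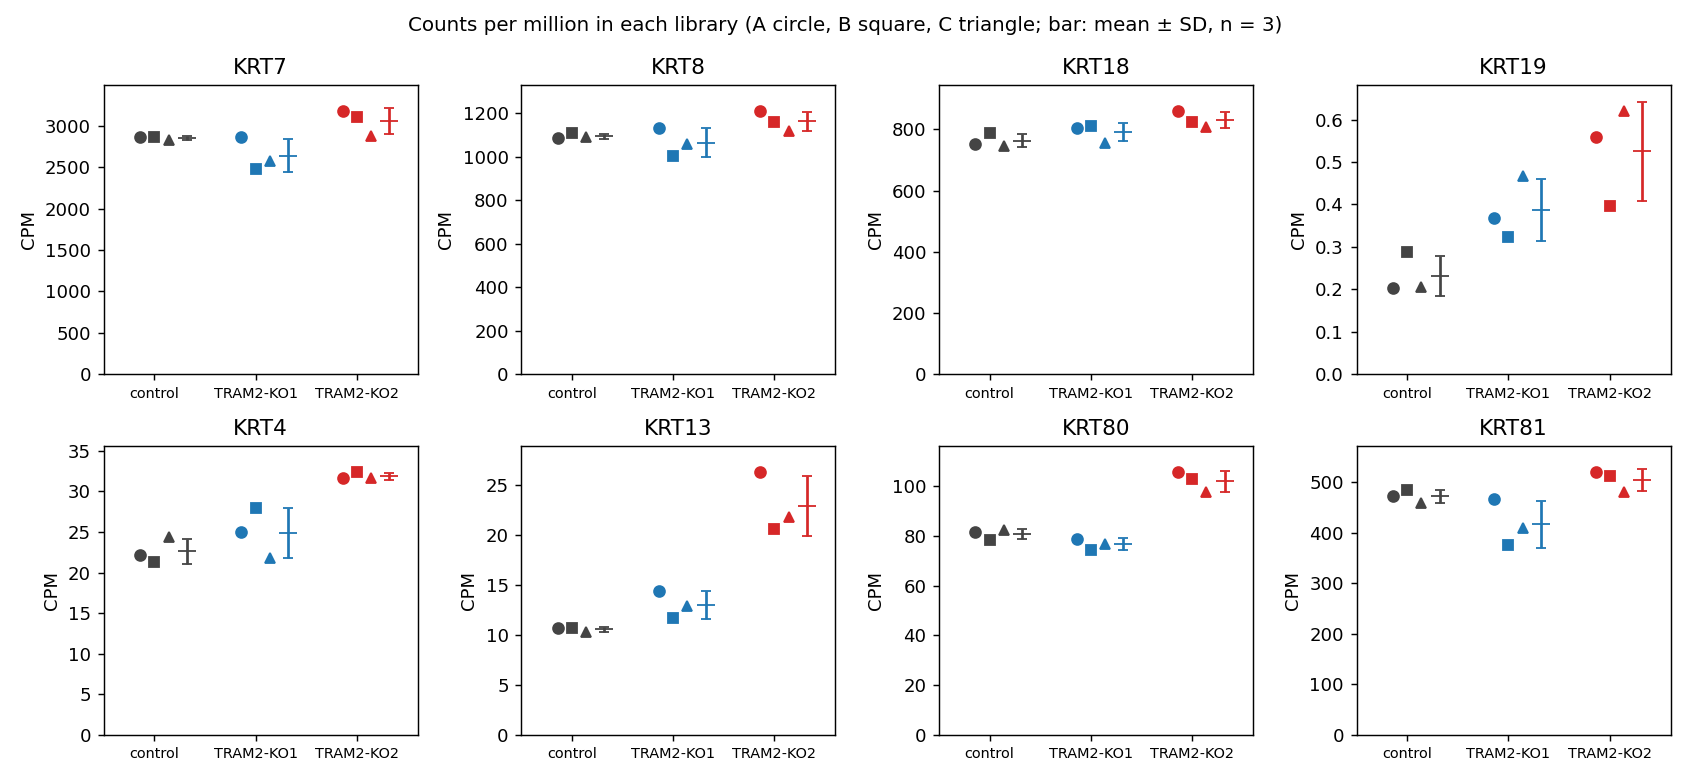
CPM of 8 keratin genes in each library (circle A, square B, triangle C), with the mean ± SD of each group (n = 3) as a bar, all axes starting at 0. KRT13, KRT4, KRT80 and KRT7 stand higher in all 3 TRAM2-KO2 libraries than in any other library, for KRT7 narrowly (2881 against 2867 CPM). KRT7 and KRT81 are lower in libraries B and C of TRAM2-KO1 than in library A.

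Changes between groups were tested on estimated reads summed per gene, and a gene is said to rise or fall where the edgeR quasi-likelihood test gave an adjusted p under 0.05 over all 15109 genes tested. KRT23 had too few reads to be tested, which left 8 of the 9 keratins. With TRAM2-KO2, 3 of these 8 rose against control and 0 fell, namely the mucosal pair KRT4 and KRT13 and the epithelial keratin KRT80. Of all genes tested, 1.75% rose in this comparison and 2.5% fell. The median log2 fold change of the 8 keratins was 0.23 and that of all genes was 0.00, with all 8 values above 0. With TRAM2-KO1, 0 of the 8 passed the test, where 0.761% of all genes rose and 2.2% fell, and DESeq2 also gave 0, with no adjusted p for KRT19. In that comparison 3 keratins had an unadjusted p under 0.05, KRT7 and KRT81 with lower and KRT13 with higher values, as had 18.6% of all genes. Both comparisons use the same 3 control libraries.

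**Figure D3:**
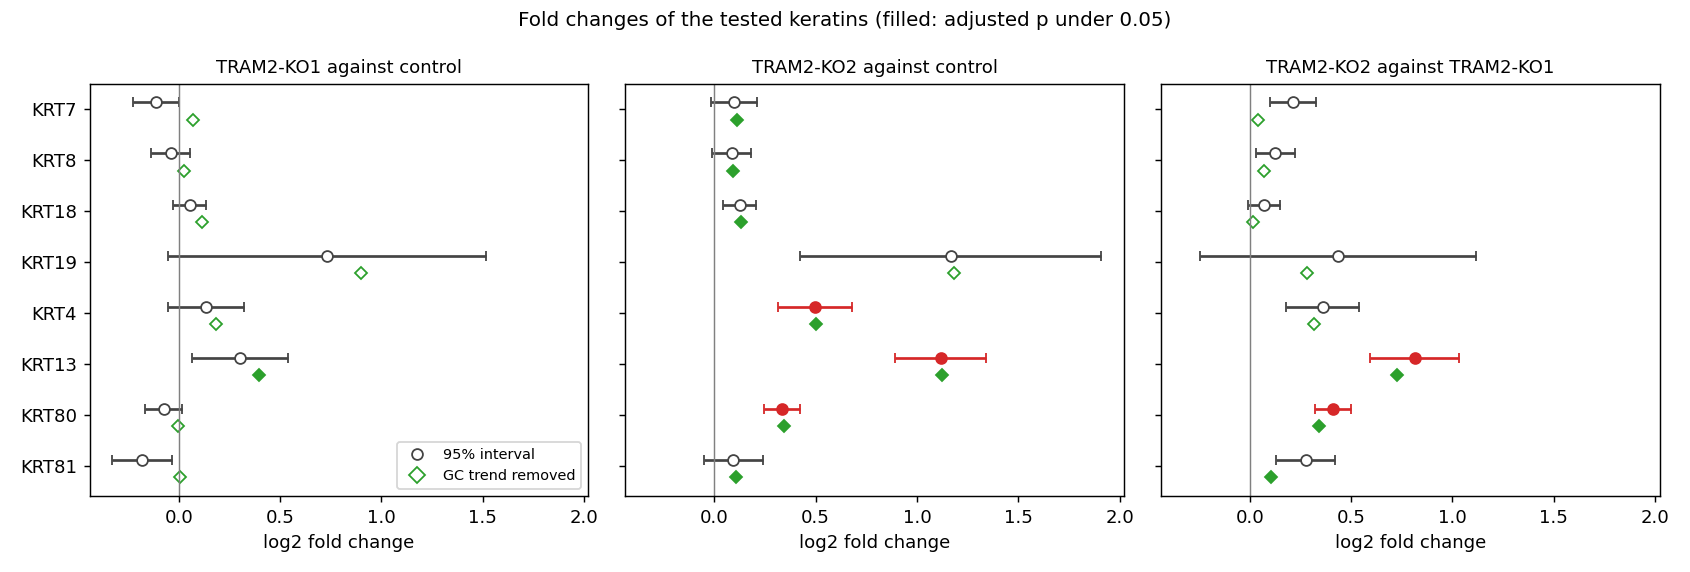
Log2 fold change (x axis, the same scale in each panel) of the 8 tested keratins in the 3 comparisons, with 95% intervals (circles) and with the value after the GC trend of each library was removed (diamonds); filled symbols have an adjusted p under 0.05. KRT13 with TRAM2-KO2 lies at 1.12 in both fits.

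The libraries differed in their GC trend, and these genes are rich in G and C. The longest annotated transcript of the 8 tested keratins was 55.3 to 62.3% G and C, against a median of 47.6% over all genes tested. Across genes, the deviation of a library from the mean of all libraries had a Spearman correlation with GC content of -0.529 in TRAM2-KO1 B and -0.36 in TRAM2-KO1 C, of 0.397 in TRAM2-KO2 A, and of -0.091 to 0.253 in the other 6. This is a description across genes, which are not independent. After a smooth GC trend had been removed from each library, 1 of the 8 keratins rose with TRAM2-KO1 (KRT13) and 7 rose with TRAM2-KO2 (all but KRT19), where 0.927% and 3.5% of all genes rose.

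Among the simple keratins, KRT7 had 2864, 2867 and 2833 CPM in the control libraries (A to C), then 2862, 2479 and 2573 CPM with TRAM2-KO1 and 3177, 3108 and 2881 CPM with TRAM2-KO2. TRAM2-KO1 A lay within the controls, TRAM2-KO1 B and C below them, and the TRAM2-KO2 libraries above them. All TRAM2-KO2 libraries lay above all controls for 11.3% of all genes tested. On the log2 scale KRT7 was at -0.11 (SE 0.0510, edgeR adjusted p = 0.266) with TRAM2-KO1 and 0.10 (SE 0.0509, adjusted p = 0.423) with TRAM2-KO2, so neither passed. The value with TRAM2-KO1 depended on library A, without which it was -0.18 (adjusted p = 0.0161), and it was 0.07 (adjusted p = 0.214) with the GC trend removed. With TRAM2-KO2 it was 0.11 (adjusted p = 0.0255) with the GC trend removed.

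KRT8, the basic partner of the embryonic pair, had 1086, 1107 and 1090 CPM in the controls, 1134, 1003 and 1057 CPM with TRAM2-KO1 and 1209, 1158 and 1120 CPM with TRAM2-KO2. The TRAM2-KO2 libraries were all above the controls, and the TRAM2-KO1 libraries lay on both sides of them. Its log2 fold change was -0.04 (SE 0.0434) with TRAM2-KO1 and 0.09 (SE 0.0434, edgeR adjusted p = 0.399) with TRAM2-KO2. Its acidic partner KRT18 was at 753, 787 and 747 CPM in controls, at 805, 812 and 757 CPM with TRAM2-KO1 and at 859, 825 and 808 CPM with TRAM2-KO2. Every TRAM2-KO2 library was again above every control, as for 11.3% of all genes, and TRAM2-KO1 C was within the controls. The log2 fold change of KRT18 was 0.05 (SE 0.0364) with TRAM2-KO1 and 0.12 (SE 0.0364, edgeR adjusted p = 0.0998) with TRAM2-KO2, and DESeq2 gave 0.13 with an adjusted p of 0.0138. The intervals for TRAM2-KO2 ran from -0.01 to 0.18 for KRT8 and from 0.04 to 0.21 for KRT18, so a larger change of either gene lies outside them.

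The balance of the pair was read from TPM within each library, which is free of library size. KRT8 exceeded KRT18 by 1.497, 1.42 and 1.45 times in the controls, 1.45, 1.56 and 1.68 times with TRAM2-KO1 and 1.39, 1.38 and 1.49 times with TRAM2-KO2. The log2 ratio differed from controls by 0.11 with TRAM2-KO1 (exact two-sided permutation test, p = 0.2) and by -0.03 with TRAM2-KO2 (exact p = 0.5), where 3 against 3 libraries cannot give a p below 0.1. Leaving out 1 library gave 0.05 (without TRAM2-KO1 C) to 0.16 (without TRAM2-KO1 A) for the first and -0.07 (without TRAM2-KO2 C) to -0.01 (without control A) for the second. With estimated reads in place of TPM the TRAM2-KO1 difference was -0.09, of the opposite sign, and with the main transcript of each gene alone it was 0.00.

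Reads were also divided differently between transcripts. KRT8-211, an annotated retained-intron transcript of 770 bases, took 18.1 to 19.0% of the KRT8 reads in controls and 18.5% in TRAM2-KO1 A, but 30.7% in TRAM2-KO1 B and 28.4% in TRAM2-KO1 C. With TRAM2-KO2 its share was 18.3, 14.6 and 21.6% in A, B and C. For KRT18, the transcript KRT18-201 took 34.9, 24.2 and 27.2% of reads in controls, 28.4, 49.1 and 44.9% with TRAM2-KO1 and 25.1, 27.2 and 32.1% with TRAM2-KO2. TRAM2-KO1 B and C thus had the highest shares of both transcripts, and they were also the libraries with the most negative GC trend. The mean share differed between TRAM2-KO1 and controls by 7.30 percentage points for KRT8-211 (exact permutation test, p = 0.3) and by 12.01 points for KRT18-201 (exact p = 0.2). These transcripts were picked after their values were seen, and the part of the GC trend in them was not tested. The annotated spans of KRT8 (minus strand) and KRT18 (plus strand) overlap by 1084 bases at GRCh37 chr12:53342655-53343738, and whether the quantification used strand is not given in the sources used here.

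**Figure D4:**
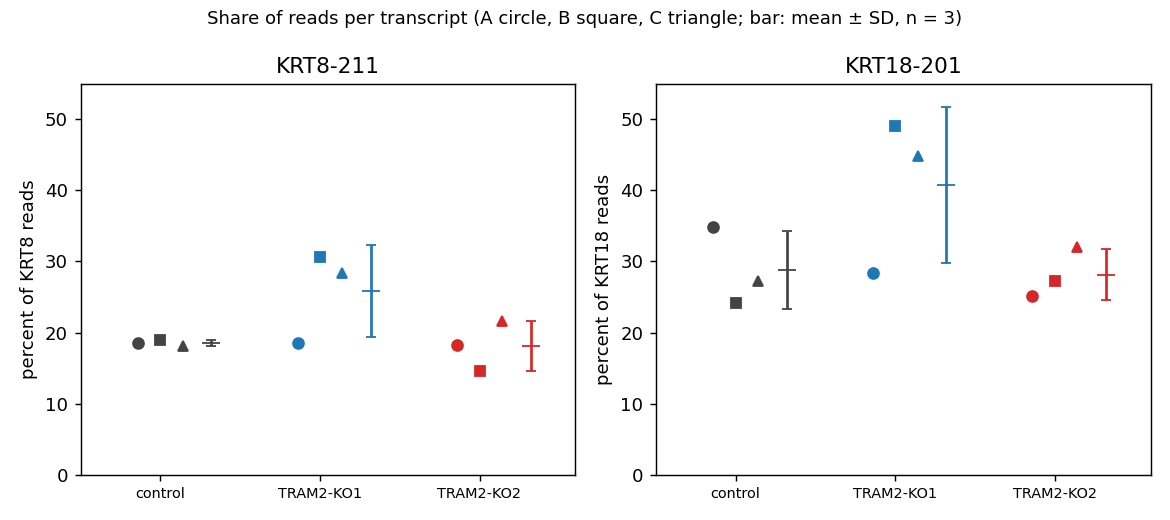
Percent of the reads of KRT8 assigned to KRT8-211 (left) and of KRT18 assigned to KRT18-201 (right) in each library (circle A, square B, triangle C), with the mean ± SD of each group (n = 3). TRAM2-KO1 B and C stand above all other libraries, at 30.7 and 28.4% on the left and 49.1 and 44.9% on the right.

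KRT19, the smallest keratin and a common luminal marker, was almost silent, with 5, 7 and 5 estimated reads in the controls, 10, 7 and 12 reads with TRAM2-KO1 and 15, 10 and 17 reads with TRAM2-KO2. In CPM, all 3 libraries of both knockout groups were above all controls. This held for 11.9% of all genes with TRAM2-KO1 and for 11.3% with TRAM2-KO2. TRAM2-KO1 B and control B had the same 7 reads. In TPM, TRAM2-KO2 B at 0.400 lay below control A at 0.440, so controls and TRAM2-KO2 overlapped. The fitted log2 fold change reached 0.73 (SE 0.353, edgeR adjusted p = 0.338) with TRAM2-KO1 and 1.17 (SE 0.336, adjusted p = 0.0948) with TRAM2-KO2, with a 95% interval of 0.42 to 1.91 for the latter, so the largest fitted change among the keratins did not pass the test. KRT7 exceeded KRT19 by 3745 times or more in TPM in every library, and the log2 ratio of KRT7 to KRT19 differed from controls by -0.91 with TRAM2-KO1 (exact permutation test, p = 0.1, the smallest possible) and by -0.66 with TRAM2-KO2 (exact p = 0.4). Both moved when single libraries were left out: without control C they were -0.56 and -0.32, and without TRAM2-KO2 C the second was -0.31.

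The mucosal pair held the largest change that passed the test. KRT13, the acidic member, had 10.7, 10.7 and 10.2 CPM in the controls, 14.4, 11.6 and 12.9 CPM with TRAM2-KO1 and 26.3, 20.6 and 21.7 CPM with TRAM2-KO2. In CPM the 3 groups did not overlap, with every TRAM2-KO1 library above the controls and every TRAM2-KO2 library above TRAM2-KO1. All TRAM2-KO1 libraries lay above all controls for 11.9% of all genes tested, and all TRAM2-KO2 libraries for 11.3%. In TPM KRT13 was at 8.09 to 10.8 in controls and 8.78 to 12.7 with TRAM2-KO1, so controls and TRAM2-KO1 overlapped. Its log2 fold change with TRAM2-KO2 came to 1.12 (SE 0.102, 95% interval 0.89 to 1.34, edgeR adjusted p = 0.000141), a 2.17-fold higher level. By edgeR, KRT13 alone of the 8 was also past a log2 fold change of 0.5, the fold limit the study applied beside its adjusted p, which 0.351% of all genes passed upward, against 0 keratins and 0.0529% of all genes with TRAM2-KO1. With TRAM2-KO1 its log2 fold change was 0.30 (SE 0.107, edgeR adjusted p = 0.171). It was 0.40 (SE 0.0807, adjusted p = 0.0193) with the GC trend removed and 0.19 (SE 0.181, adjusted p = 0.713) with transcript length offsets. Over all settings tried for TRAM2-KO2 the value stayed between 1.01 and 1.19, with adjusted p at or below 0.0279.

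KRT4, the basic member, stood at 22.1, 21.4 and 24.3 CPM in controls, at 25.0, 27.9 and 21.8 CPM with TRAM2-KO1 and at 31.6, 32.4 and 31.6 CPM with TRAM2-KO2. The TRAM2-KO2 libraries were close to one another and above all others, and TRAM2-KO1 C lay within the controls. For 11.3% of all genes, all TRAM2-KO2 libraries lay above all controls. Its log2 fold change with TRAM2-KO2 came to 0.50 (SE 0.0825, 95% interval 0.31 to 0.68, edgeR adjusted p = 0.00656), at the fold limit of the study. Unrounded it was 0.4957 by edgeR, below the limit, and 0.5004 by DESeq2, the tool the study used, above it, and it was also above with RLE factors (0.5002), with no filter on low counts (0.503) and with the GC trend removed (0.5008). The rise was lost when transcript lengths entered the fit as offsets (0.49, SE 0.101, edgeR adjusted p = 0.0701), where 0.437% of all genes rose in place of 1.75%. With TRAM2-KO1 it was 0.14 (SE 0.0842, adjusted p = 0.417).

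The level of KRT4 over KRT13 in TPM was 1.70, 1.17 and 1.41 in the controls, 1.18, 1.92 and 1.13 with TRAM2-KO1 and 0.786, 0.950 and 1.14 with TRAM2-KO2. Every TRAM2-KO2 library was below every control, with TRAM2-KO2 C just under control B. The log2 ratio was 0.57 lower with TRAM2-KO2 than in controls (a difference of -0.57, exact two-sided permutation test, p = 0.1, the smallest that 3 against 3 allow) and differed by -0.04 with TRAM2-KO1 (exact p = 0.9), where leaving out 1 library gave -0.29 (without TRAM2-KO1 B) to 0.10 (without TRAM2-KO1 C).

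The 250 bases before the start of KRT4-204, the transcript with 91.4 to 99.8% of KRT4 reads, are shown as the promoter of the one member that both rose and is held in the promoter table, from RefSeq (GRCh38.p14, chr12:52814117-52814366, minus strand). Capitals mark the TATA-like letters TATAAG, which begin 29 bases before the start.
KRT4: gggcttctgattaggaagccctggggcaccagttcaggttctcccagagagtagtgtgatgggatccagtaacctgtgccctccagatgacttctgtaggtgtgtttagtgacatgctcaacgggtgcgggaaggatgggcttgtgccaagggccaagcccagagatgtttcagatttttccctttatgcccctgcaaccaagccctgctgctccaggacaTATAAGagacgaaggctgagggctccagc
The table had entries for 2 of the 9 genes, KRT4 and KRT8, and the KRT8 entry lies 19851 bases upstream of its main transcript. In windows of 300 bases, TATAAG on either strand occurs in 5.59% of 35116 promoters. The TATA box core TATAAA, found in 11.53% of them, is not in the KRT4 window, nor are GGAATG, a core of TEAD sites (14.03%), TGANTCA, the AP-1 site (7.71%), or GGGCGG, a Sp1 and KLF site (44.95%).

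KRT80, a basic keratin of many epithelia, had 81.6, 78.3 and 82.3 CPM in the controls, 78.8, 74.3 and 76.7 CPM with TRAM2-KO1 and 106, 103 and 97.4 CPM with TRAM2-KO2. The TRAM2-KO2 libraries were all above the other 6, and TRAM2-KO1 overlapped with the controls. For 11.3% of all genes, all TRAM2-KO2 libraries lay above all controls. Its log2 fold change with TRAM2-KO2 came to 0.34 (SE 0.0401, 95% interval 0.25 to 0.42, edgeR adjusted p = 0.000870), a 26.2% higher level, and with TRAM2-KO1 it was -0.07 (SE 0.0407, adjusted p = 0.355). Over the settings tried, the TRAM2-KO2 value lay between 0.31 and 0.37 with adjusted p at or below 0.0183. KRT80-202 held 71.1% ± 1.63 of the KRT80 reads in controls, 74.4% ± 1.59 with TRAM2-KO1 and 75.4% ± 4.17 with TRAM2-KO2 (SD, n = 3).

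KRT81, a basic keratin of the hair cortex, was at 472, 486 and 460 CPM in controls, at 466, 375 and 409 CPM with TRAM2-KO1 and at 520, 513 and 480 CPM with TRAM2-KO2. TRAM2-KO1 B and C were below all controls, TRAM2-KO1 A was within them, and TRAM2-KO2 C was within them too. For KRT81 the log2 fold change was -0.18 (SE 0.0664, edgeR adjusted p = 0.184) with TRAM2-KO1 and 0.09 (SE 0.0661, adjusted p = 0.595) with TRAM2-KO2. Without TRAM2-KO1 A the first became -0.27 (adjusted p = 0.00595), and with the GC trend removed it was 0.01 (adjusted p = 0.936) and the second 0.11 (adjusted p = 0.00660).

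KRT23, an acidic keratin, had 3, 2 and 1 reads in the controls, 2, 1 and 2 with TRAM2-KO1 and 3, 2 and 2 with TRAM2-KO2. All values were at or below 3 reads, so a difference was not detectable at this depth and no fold is given.

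Paralogs and processed copies limit how far reads can be assigned to some of these genes. Of the distinct stretches of 31 bases in the main transcript, 98.5% occurred in no other gene for KRT80, 98.1% for KRT4, 96.7% for KRT13, 94.7% for KRT7 and 88.6% for KRT19, but 46.8% for KRT81, 43.4% for KRT8 and 31.7% for KRT18. KRT8 and KRT18 share sequence with processed pseudogenes, of which 51 and 67 had been annotated. Their summed reads came to at most 0.51% of KRT8 and 0.14% of KRT18 in any library. The copies of KRT19 had at most 2 reads in a library, which is up to 20% of KRT19. KRT83, KRT85 and KRT86 together added at most 4.54% to KRT81.

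KRT81 shares 43.2% of its stretches with KRT86, whose annotated span covers it on the opposite strand. Their exons 2 to 8 span 910 bases with 27 differences (97.0% identity), and exon 5, with 8 of them in 165 bases, is shown to let a reader judge how alike the genes are. Both are in GRCh37, on the gene's own strand, KRT81 at chr12:52681768-52681932 (minus) and KRT86 at chr12:52699024-52699188 (plus), with the differing bases in capitals.
KRT81: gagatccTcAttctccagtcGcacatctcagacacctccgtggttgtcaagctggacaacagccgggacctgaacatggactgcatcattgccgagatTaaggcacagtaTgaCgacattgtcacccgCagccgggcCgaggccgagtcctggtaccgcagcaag
KRT86: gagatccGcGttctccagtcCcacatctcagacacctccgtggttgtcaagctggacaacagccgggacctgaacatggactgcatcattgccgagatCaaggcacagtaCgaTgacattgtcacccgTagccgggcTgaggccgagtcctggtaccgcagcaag
KRT86 was assigned 14.8, 21.3 and 18.8 CPM in controls, 17.4, 15.8 and 10.7 CPM with TRAM2-KO1 and 18.6, 21.5 and 18.4 CPM with TRAM2-KO2. Its log2 fold change of 0.09 with TRAM2-KO2 (SE 0.168, edgeR adjusted p = 0.897) stood beside 0.09 for KRT81. Both knockout groups overlapped with the controls. All 3 TRAM2-KO2 libraries were above all TRAM2-KO1 libraries, at a log2 fold change of 0.41 (SE 0.1705, edgeR adjusted p = 0.216).

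Of the genes that share stretches of 31 bases with KRT13, KRT15 shares the most, and this basal keratin also rose with TRAM2-KO2. The longest run common to KRT13-201 and KRT15-201 has 66 bases and is written in lower case throughout.
KRT13 and KRT15: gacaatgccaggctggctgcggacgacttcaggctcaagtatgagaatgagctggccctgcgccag
Only 2.7% of the stretches of KRT13 occur in KRT15.

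The tested keratin genes lie in 2 clusters, on chromosome 12 (type II keratins and KRT18) and chromosome 17 (type I keratins). With TRAM2-KO2, 5 of 11 rose on chromosome 12 and 5 of 9 on chromosome 17, where 1.75% of all genes rose. The median log2 fold changes were 0.13 and 0.48. KRT13 (GRCh37 chr17:39657233-39661957) lies next to KRT15 and KRT19 (chr17:39679869-39684560), with 8039 bases between KRT13 and KRT15 and 1087 between KRT15 and KRT19. Their log2 fold changes were 1.12, 0.91 and 1.17, the last below the test. On chromosome 12, KRT80 (chr12:52562780-52585798) rose while KRT7, 40505 bases away, was at 0.10, and KRT4 (chr12:53200333-53207900) rose while KRT8, 83070 bases away, was at 0.09.

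**Figure D5:**
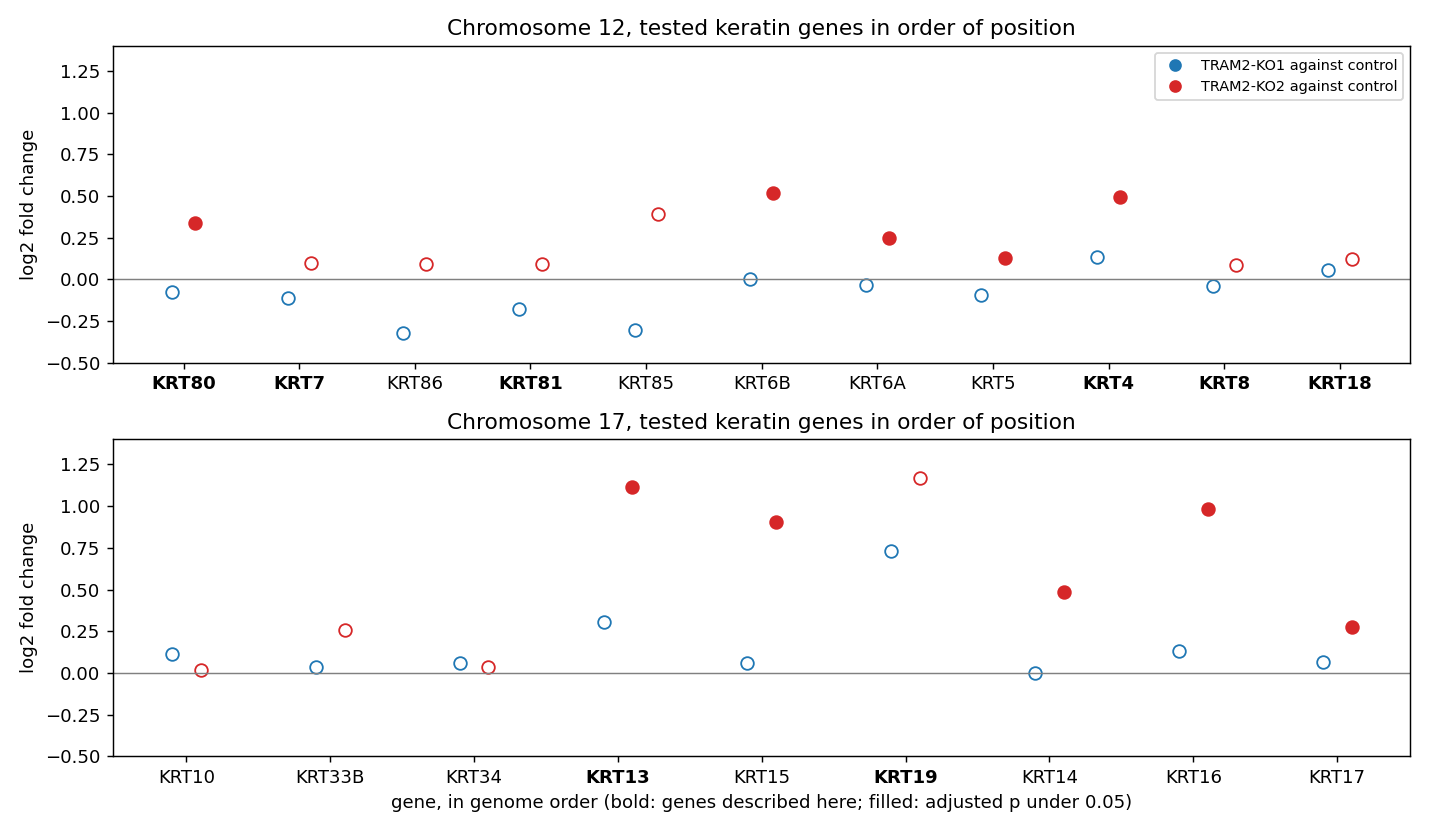
Log2 fold change against control of every tested keratin gene, in genome order on chromosome 12 (top, 11 genes) and chromosome 17 (bottom, 9 genes); bold names are the keratins described, and filled circles have an adjusted p under 0.05. With TRAM2-KO2 the highest values on chromosome 17 belong to KRT19 at 1.17 and KRT13 at 1.12.

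The 2 knockout groups were also compared with each other. KRT13 was higher with TRAM2-KO2 than with TRAM2-KO1 by 0.81 (SE 0.0998, 95% interval 0.59 to 1.03, edgeR adjusted p = 0.00268) and KRT80 by 0.41 (SE 0.0402, 95% interval 0.32 to 0.50, adjusted p = 0.000698). These 2 of 8 keratins rose and 0 fell, where 1.42% of all genes rose and 0.867% fell, and KRT13 was past the fold limit as well, with 0.417% of all genes. For KRT4 the difference was 0.36 (adjusted p = 0.0521), for KRT7 0.21 (adjusted p = 0.0634) and for KRT81 0.27 (adjusted p = 0.0635), and DESeq2 passed these 3 as well. With the GC trend removed the difference shrank to 0.04 for KRT7 (adjusted p = 0.452) and to 0.10 for KRT81 (adjusted p = 0.0174). For 5 of the 8 all TRAM2-KO2 libraries were above all TRAM2-KO1 libraries, which held for 9.52% of all genes. Against control, all 3 TRAM2-KO2 libraries were above for 7 of the 8 (11.3% of all genes), and all 3 TRAM2-KO1 libraries for 2 of the 8 (11.9% of all genes). For 0 of the 8 were all libraries below in any comparison, against 11.1% of all genes with TRAM2-KO1, 12.3% with TRAM2-KO2 and 11.9% between the knockouts. The call for KRT13 was lost with transcript length offsets (0.88, edgeR adjusted p = 0.110), where 0.225% of all genes rose in place of 1.42%. With TRAM2-KO1 A as the sole library of its group the value for KRT13 was 0.67.

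By a fixed measure of likeness, the root mean square difference of log2 CPM centred on the control mean over the 9 libraries, the 3 genes most like KRT13 among 11739 were PADI2 (0.157), KRT16 (0.184) and PTGS2 (0.191). PADI2, a peptidylarginine deiminase, was at 6.63 CPM in controls, 8.59 CPM with TRAM2-KO1 and 13.8 CPM with TRAM2-KO2, as means of 3. PTGS2, the inducible cyclooxygenase, was at 25.8, 35.3 and 51.3 CPM. KRT16, a keratin of activated epidermis, was at 11.8, 12.9 and 23.3 CPM. All 3 rose with TRAM2-KO2, at log2 fold changes of 1.06 (PADI2), 0.99 (PTGS2) and 0.98 (KRT16). With TRAM2-KO1, PADI2 (0.37, edgeR adjusted p = 0.0196) and PTGS2 (0.45, adjusted p = 0.00626) rose too. KRT16 (0.13, edgeR adjusted p = 0.488) did not pass there, nor did KRT13.

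All 7 tested basal keratins rose with TRAM2-KO2, where 1.75% of all genes rose, at a median of 0.48. None of the 7 passed with TRAM2-KO1 by edgeR (1 of 7 at an unadjusted p under 0.05), with a median of 0.00. KRT16 was at 0.98 (SE 0.0895), KRT15 at 0.91, KRT6B at 0.52 and KRT6A at 0.25 with TRAM2-KO2. Of the remaining keratins 5 were tested and 0 passed in either comparison with control by edgeR (0 at an unadjusted p under 0.05 in each), at medians of 0.03 and 0.09. Among them KRT10, of the upper epidermis, was at 0.11 with TRAM2-KO1 and 0.02 with TRAM2-KO2, and the hair keratin KRT34 at 0.06 and 0.03. The hair keratin KRT85 was at -0.30 (SE 0.358) and 0.39 (SE 0.335).

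Among all genes tested, 1.75% rose and 2.5% fell with TRAM2-KO2, and 0.761% rose and 2.2% fell with TRAM2-KO1. Of the linkers, proteins that tie keratin filaments to junctions, 3 of 12 tested rose with TRAM2-KO2 and 0 fell, at a median of 0.15. These were periplakin (PPL, 0.56, SE 0.0994, adjusted p = 0.0101), plakoglobin (JUP, 0.39, adjusted p = 0.0182) and plakophilin 2 (PKP2, 0.20, adjusted p = 0.0152). PKP3 was at 0.30 with TRAM2-KO2 and at -0.31 with TRAM2-KO1, past the test in neither. With TRAM2-KO1, 0 of the 12 linkers (median -0.14) and 0 of the 8 other intermediate filaments (median -0.04) passed by edgeR, with 3 of each at an unadjusted p under 0.05 and VIM at -0.08. Of the other intermediate filaments, 1 of 8 fell with TRAM2-KO2, vimentin (VIM, -0.40, SE 0.0282, edgeR adjusted p = 2.5e-05), the filament of mesenchymal cells, at a list median of -0.03. LMNA and LMNB2, of the nuclear lamina, were at 0.02 and 0.00 with TRAM2-KO2 and at -0.22 (adjusted p = 0.215) and -0.26 (adjusted p = 0.132) with TRAM2-KO1, and SYNM at -0.24 (adjusted p = 0.111). Of the 12 keratin-binding chaperones and 14-3-3 proteins, HSPA8 fell with TRAM2-KO2 (-0.14) and HSPA1A with TRAM2-KO1 (-0.46), at medians of 0.01 and 0.05, while HSPB1 was at 0.08 and -0.35 and SFN at 0.03 and -0.20 with TRAM2-KO2 and TRAM2-KO1, in that order.

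Of 16 tested epithelial transcription factors, 5 rose and 1 fell with TRAM2-KO2, at a median of 0.16. Among all genes tested, 1.75% rose and 2.5% fell with TRAM2-KO2, and 0.761% rose and 2.2% fell with TRAM2-KO1. GRHL2, which maintains epithelial junction genes, was at 0.33 (SE 0.0464, edgeR adjusted p = 0.00236), a rise that was lost with transcript length offsets, at -0.04. KLF4 was at 0.41 and SOX9 at 0.36, and TFAP2A fell with both sgRNAs, at -0.20 with TRAM2-KO1 and -0.24 with TRAM2-KO2. With TRAM2-KO1, 0 rose and 2 fell, at a median of -0.06. Of the 4 tested mucosal squamous genes, EMP1 rose with both sgRNAs (0.18 and 0.23) and SCEL, a cornified envelope precursor, with TRAM2-KO2 (0.47, SE 0.0446, adjusted p = 0.000174), while IVL was at -0.15 and 0.02 and CNFN at -0.35 and -0.03, with list medians of -0.04 and 0.12. Of the 6 tested luminal epithelial genes, 3 rose with TRAM2-KO2, namely CLDN4 (0.54), CLDN7 (0.92) and SLPI (0.54), at a median of 0.42. LCN2 was at 0.30 (adjusted p = 0.0890), and with TRAM2-KO1 only SLPI rose (0.21), at a list median of -0.04. None of the 7 tested retinoic acid response genes passed in either comparison with control by edgeR (3 of 7 at an unadjusted p under 0.05 in each, against 18.6% and 15% of all genes), with medians of -0.09 and 0.02. RARA was at -0.27 and -0.06, DHRS3 at -0.04 and 0.23, CYP26B1 at -0.22 and -0.26 and RARRES1 at 0.05 and 0.55 (SE 0.168, adjusted p = 0.124).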

How the data were processed

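RNA of MCF10A-YAP cells was sequenced in 9 libraries, 3 per group. Per the labels, the authors trimmed reads with cutadapt and quantified transcripts with Salmon, with versions, transcript release and build not given in the sources used here. The deposited values are expected counts (estimated reads) and TPM per transcript, with transcript lengths. Of 226030 transcripts, 220336 (97.5%) matched GENCODE release 44 on GRCh37 and were summed per symbol; the rest were left out. Counts were rounded and tested with edgeR 4.0.16 (R 4.3.3; TMM factors, quasi-likelihood, two-sided, all 9 libraries in 1 fit, filterByExpr with a minimum of 10 counts), with Benjamini-Hochberg adjustment over 15109 genes. DESeq2 1.42.0, RLE factors, filters, transcript length offsets, GC offsets (lowess span 0.3), the replicate letter and left-out libraries were alternatives. CPM used the TMM-scaled library. The floor was 3 counts.

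The members and lists were chosen with earlier results of these data known. The named genes were the 9 keratins, TRAM2, up to 4 genes of each list with the smallest p in either comparison with control, and the 3 genes most like each keratin with an adjusted p under 0.05 and a log2 fold change over 0.5 there; MCF10A markers were fixed alongside. The lists held 8 basal keratins, 38 other keratins, 13 linkers, 16 other intermediate filaments, 12 chaperones and 14-3-3 proteins, 21 transcription factors, 12 mucosal, 11 luminal and 12 retinoic acid genes. Libraries held 21745712 to 27563287 estimated reads, and the common biological coefficient of variation was 5.81%. The labels do not say that the letters were separate cultures, so p-values measure the spread between libraries, which may be technical. Samples were grouped by title. The series' own design text instead speaks of an empty vector and of overexpressed TRAM2 or YAP; the sample labels and series title, which name control and TRAM2 sgRNAs, were followed, and TRAM2 was lower in both sgRNA groups. The fitting script was tested on simulated data.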

Additional observations from a re-analysis of the deposited data

Results flagged for a closer look

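For 2 keratins the response to the 2 sgRNAs differed by a test of the difference itself (edgeR quasi-likelihood test, TRAM2-KO2 against TRAM2-KO1). KRT13 was 0.81 higher on the log2 scale with TRAM2-KO2 (SE 0.0998, adjusted p = 0.00268), at 20.6 to 26.3 CPM against 11.6 to 14.4 CPM, in 3 of 3 libraries. KRT80 was 0.41 higher (SE 0.0402, adjusted p = 0.000698), at 97.4 to 106 CPM against 74.3 to 78.8 CPM, again in 3 of 3 libraries. TRAM2 itself differed between the same groups by 0.01 (SE 0.0327, adjusted p = 0.878).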

How the results depend on the processing

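With TRAM2-KO1 against control, 0 of the 8 tested keratins passed in edgeR. With the GC trend removed 1 rose, where 0.927% of all genes rose. With the replicate block and the GC trend removed together 1 rose, where 0.834% of all genes rose. Leaving out 1 library gave 0 to 2. The 2 were KRT7 and KRT81, which fell without TRAM2-KO1 replicate A, where 8.83% of all genes fell in place of 2.2%. With TRAM2-KO2 against control, 3 rose, where 1.75% of all genes rose. With the GC trend removed 7 rose, without or with the replicate block, where 3.5% and 3.16% of all genes rose. The count was 4 with DESeq2, 4 with only the 6 libraries compared and 2 with transcript length offsets. Of all genes, 1.83%, 2.65% and 0.437% rose in these settings. Every left-out library gave 3, with rises among all genes of 0.811% to 2.21%. With TRAM2-KO2 against TRAM2-KO1, 2 rose, where 1.42% of all genes rose. The count was 5 with DESeq2, 5 with no filter on low counts, 5 with genes under a mean of 5 CPM left out and 1 with transcript length offsets. Of all genes, 2.61%, 1.43%, 2.87% and 0.225% rose in these settings. With TRAM2-KO1 A as the sole library of its group, a choice made after seeing the data, KRT13 was at 0.67 and KRT80 at 0.38. That fit assumes that the lone library varies like the others. Leaving out 1 library gave 2 to 6 rises between the knockouts. There were 6 without TRAM2-KO1 A, where the rises among all genes also went from 1.42% to 8.03%. Without TRAM2-KO1 B, where 0.947% of all genes rose, there were 3, which added KRT4 (0.45, edgeR adjusted p = 0.0202). The log2 ratio of KRT8 to KRT18 with TRAM2-KO1 against control went from 0.11 to -0.0949 with estimated reads and to 0.00 (-0.0047) with the main transcripts alone, and with TRAM2-KO2 against TRAM2-KO1 from -0.14 to 0.0564 with estimated reads. The KRT7 to KRT19 ratio could not be taken from main transcripts, since KRT19-201 was at 0 in 1 library. GRHL2 with TRAM2-KO2 went from 0.33 to -0.0389 with transcript length offsets. The cause was not tested. Over the 158 values of single keratins in each comparison with control, 154 with TRAM2-KO1 and 146 with TRAM2-KO2 kept their side of the threshold, and of 159 between the knockouts, 139. Deviations from group means correlated at -0.087 to 0.093 between libraries of one letter and at -0.146 to 0.122 between libraries of different letters. No pairing by letter was seen, but with 3 libraries per group this check cannot exclude a shared culture or batch. With the replicate block the counts were 0, 3 and 3, where 0.609%, 1.52% and 1.28% of all genes rose. The last count included KRT7 at 0.21 (edgeR adjusted p = 0.0448). That call was lost again when the GC trend was removed as well (0.04, adjusted p = 0.450). Depth limits KRT19 and KRT23, with 17 reads or fewer per library.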
